A study of Mus musculus with 6 samples.

Results

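The 10 genes described here are the coactivators Ppargc1a, Ppargc1b and Pprc1, the nuclear transcription factors Nrf1, Gabpa and Esrra, and the mitochondrial DNA transcription factors Tfam, Tfb1m, Tfb2m and Polrmt. They were chosen by name, with earlier results of these data known. Every probe set annotated to 1 of them alone was taken, which gave 22 of the 45032 probe sets analysed and 10 of 18192 named genes. RNA came from bone marrow cells sorted as CD71+/Ter-119+, a combination of the transferrin receptor and a red cell lineage antigen that marks nucleated erythroid precursors. It was hybridised to 6 single-colour Affymetrix arrays, 3 from Rb-null mice and 3 from control mice. Rb-null mice were EpoR-GFPcre/+; Rb fl/fl, and control mice were EpoR-GFPcre/+; Rb fl/+, so that both groups carried the Cre recombinase at the erythropoietin receptor locus and at least 1 floxed Rb allele. The labels do not give the age of the mice or whether each array is a mouse of its own, so the p-values rest on a spread between arrays that may be technical. The title of the series sets the question of how Rb, the retinoblastoma protein that holds cells out of S phase, couples leaving the cell cycle to mitochondrial biogenesis.

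Mitochondrial biogenesis is driven from the nucleus. Coactivators of the PGC-1 family do not bind DNA themselves but dock on transcription factors such as Nrf1, Gabpa and the estrogen-related receptor Esrra, which switch on genes of the respiratory chain and of mitochondrial gene expression. Within the organelle Polrmt, the mitochondrial RNA polymerase, starts transcription with Tfam and Tfb2m, and erythroblasts need mitochondria for heme synthesis before the organelles are cleared from the maturing red cell.

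Sites of the kind that Nrf1 and Gabpa are known to bind stood in the promoter windows of several of these genes, and they are shown to set the letters of such sites beside the levels of both kinds of gene. RefSeq windows of the GRCm38.p6 build, running from 250 bases before to 50 bases after an annotated start, were searched for 9 of the genes. Ppargc1b had no window in this search, which left out a chromosome for the members but not for the share of all windows. The letters GCNTGCGC (Nrf1 type) and CGGAAG (Gabp type, the core of sites of the ETS family) were searched on both strands. Capitals mark the matched letters, as they run on the strand of the gene.
Tfam, chr10:71238073-71238102, minus strand, Gabp type: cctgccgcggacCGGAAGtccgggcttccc
Tfb2m, chr1:179546290-179546319, minus strand, Gabp type, a tandem match: gcggagcctaggCGGAAGCGGAAGcgagtg
Tfb2m, chr1:179546245-179546274, minus strand, Nrf1 type: ctaggtcgttcGCATGCGCcattcgtaatg
Polrmt, chr10:79746567-79746596, minus strand, Nrf1 type, 2 overlapping matches: ctgcaggcggcGCGTGCGCGTGCGCactgc
Polrmt, chr10:79746607-79746636, minus strand, Gabp type: accctaagagcgCTTCCGgcagtcgcagaa
Gabpa, chr16:84835019-84835048, plus strand, Gabp type: ggagggtaagtgCTTCCGggtccctcagct
The Gabp letters were found in the windows of 4 of the 9 genes, Tfam, Tfb2m, Polrmt and Gabpa, and in 16.9% of all 32851 promoter windows. The Nrf1 letters were found in those of 3 genes, Tfb2m, Polrmt and Esrra, and in 9.95% of all windows. The letters AAGGTCA, the core bound by estrogen-related receptors, were found in 0 of the 9 genes and in 4.72% of all windows. A match describes the letters and says nothing of binding in these cells.

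Median intensity lay between 24.5 and 29.5 on the Rb-null arrays and between 23.3 and 31.2 on the control arrays, and 3 arrays a group set the precision of what follows. The arrays numbered 3 differed from the rest, with 18S ribosomal RNA control signal of 542 (Rb-null) and 1231 (control), against 32.6 to 66.2 on the other 4. Of 12 erythroid markers 8 were measured and 7 were bright, among them Slc4a1, Tfrc, Klf1 and Alas2, whereas the probe set annotated to Hba-a1 alone read at most 27.0. Their summed signal ran from 40729 to 47651 on Rb-null arrays and from 37409 to 40949 on control arrays, higher on the Rb-null array of each number. The single markers differed. Hemgn, a nuclear protein of red cell precursors, did not overlap, at 8599 to 9212 on Rb-null arrays and 6005 to 7282 on control arrays. Tfrc and Klf1 were higher on the Rb-null array of each number but overlapped. Alas2 was lower on the Rb-null arrays numbered 1 and 3, Slc4a1 on that numbered 1 and Gata1 on that numbered 2. Epor read 248 (Rb-null) against 2221 (control) on the arrays numbered 1, and 2228 against 266 on those numbered 2. The summed signal of the 11 of 12 granulocyte markers that were measured ran from 27818 to 56401 on Rb-null arrays and from 37673 to 57210 on control arrays, lower on the Rb-null array of each number. All 11 averaged above an intensity of 18.9, the filter value given below. The brightest of them, S100a8, read 9111 to 12419 on Rb-null arrays and 10240 to 12488 on control arrays. The sum of 7 of 8 B cell markers ran from 269.9 to 388 on Rb-null arrays and from 492 to 742 on control arrays, with no overlap. The bright Rb1 probe set read 2897 to 4045 on Rb-null arrays and 1379 to 2760 on control arrays. The sources used here do not say whether it lies in the floxed stretch, so it does not check the labels.

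Across the 10 regulators the largest fold change tested, picked out by its size, was on 1 probe set of the GABP DNA-binding subunit Gabpa. It was 2.23-fold higher in Rb-null cells and did not pass the limma test (adjusted p = 0.796). The other, brighter Gabpa probe set stood at 0.29 on the log2 scale (SE 0.43). Probe sets of the mitochondrial factors Tfam, Tfb1m, Tfb2m and Polrmt differed by less than the spread between arrays. Of the 22 probe sets 14, from 7 genes, passed the filter on dim signal, an average over the arrays above log2 5.12 or an intensity of 18.9, and 8 were at background. In the limma fit over all 27019 probe sets past the filter, 0 of the 14 had an adjusted p under 0.05, as did 0% of all probe sets, 4.14% of which had an unadjusted p under 0.05. Log2 fold changes of the 14, Rb-null over control, ran from -0.22 to 1.16 with a median of 0.09, against -0.01 over all probe sets tested. Of them 9 were above 0 and 5 below, where 51.6% of all probe sets were below 0. In these bulk samples fewer cells of a type and less RNA per cell cannot be told apart, and the part of erythroid, granulocyte or B cell marker signal in any value was not tested.

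**Figure D1:**
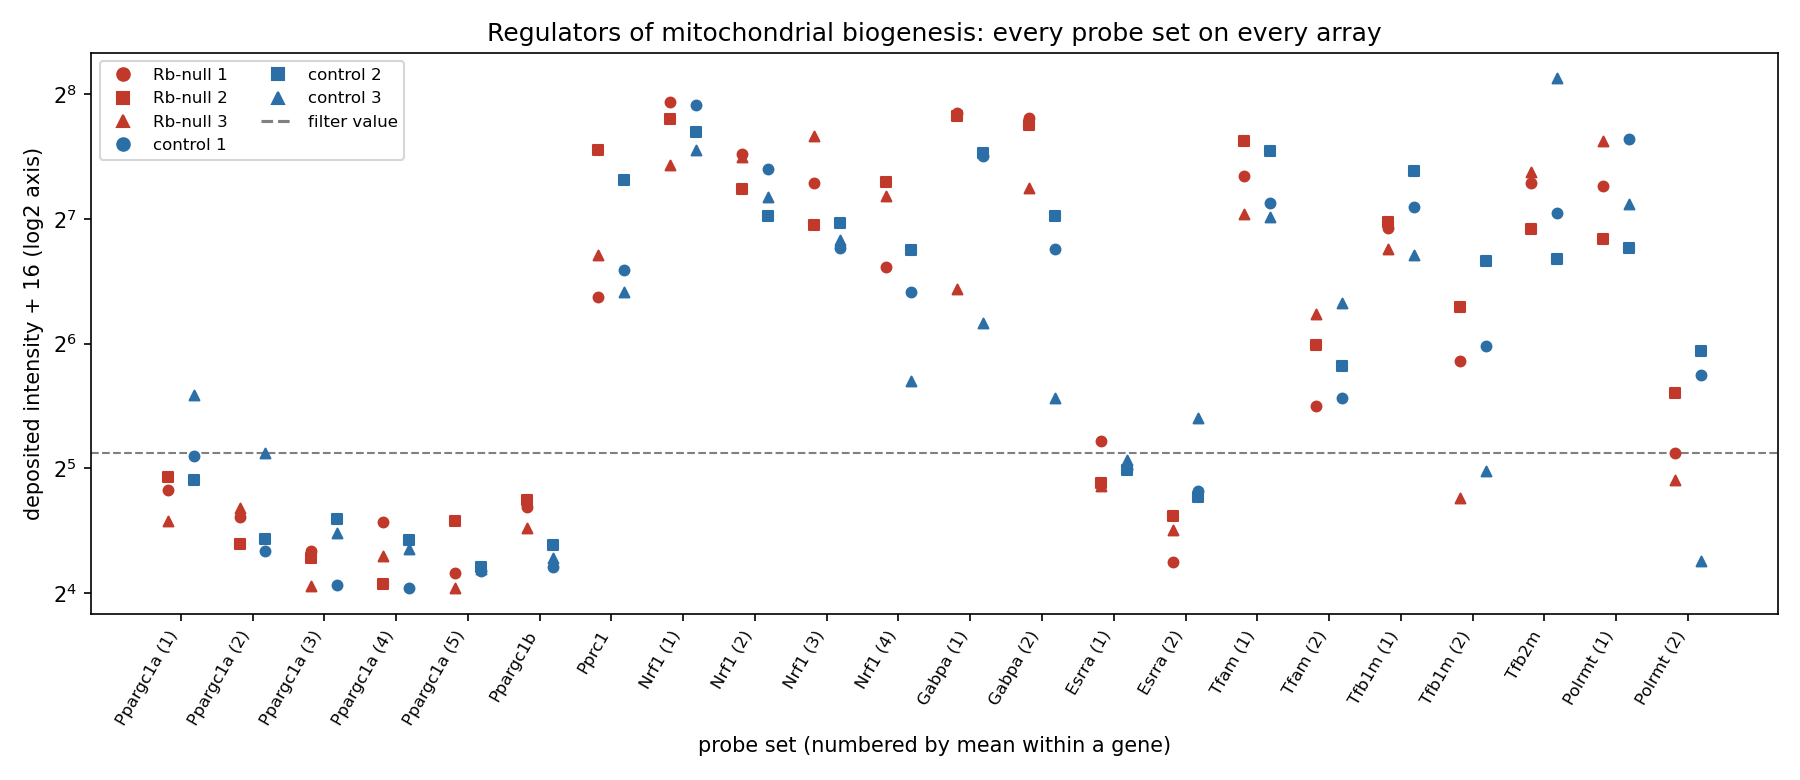
Deposited intensity plus 16, on a log2 axis, for the 22 probe sets of the 10 genes (numbered by mean within a gene) on the 3 Rb-null (red) and 3 control (blue) arrays, with a symbol for each array number and a dashed line at the filter value. All probe sets of Ppargc1a, Ppargc1b and Esrra averaged below the line, and the second Gabpa probe set is the only one past the filter whose groups do not overlap.

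The founding coactivator Ppargc1a, known as PGC-1 alpha and as the inducer of mitochondria in brown fat and muscle, was at background on all 5 of its probe sets. Its brightest, 1437751_at, read 12.4, 14.4 and 7.84 in Rb-null replicates 1, 2 and 3, against 18.2, 13.9 and 32.2 in control replicates 1, 2 and 3. Only the control replicate 3 value stood above the filter value, and the groups overlapped. The other 4 Ppargc1a probe sets read at most 18.9 on any array. Its close relative Ppargc1b read 9.85, 10.8 and 6.99 in Rb-null cells, against 2.53, 4.87 and 3.44 in control cells. Those values do not overlap, but all 6 lie below the filter value, so no fold change is given. How many dim probe sets of the whole table separate in this way was not counted. With no filter, 0 of the 8 dim probe sets passed the limma test (lowest adjusted p = 1.00).

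Pprc1, the member of the coactivator family that responds to growth signals, was the coactivator with signal above background. It read 66.9, 172 and 88.7 in Rb-null replicates 1, 2 and 3, against 80.6, 142 and 69.5 in control replicates 1, 2 and 3. Both arrays numbered 2 were high, and the groups overlapped. The means were 109 ± 55.5 in Rb-null cells and 97.5 ± 39.3 in control cells (SD, n = 3 each), a log2 fold change of 0.12 (SE 0.35, 95% interval -0.69 to 0.93, limma adjusted p = 1.00). Its sign turned without Rb-null replicate 2 (-0.15) or control replicate 1 (-0.01).

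Gabpa, which binds DNA of the ETS type and pairs with Gabpb1 or Gabpb2 to activate transcription, had the largest fold change among the 14 probe sets past the filter on 1 of its 2 probe sets. On 1450665_at it read 208, 199 and 136 in Rb-null replicates 1, 2 and 3, against 92.4, 114 and 31.2 in control replicates 1, 2 and 3. Each Rb-null array lay above every control array, and the array numbered 3 was the lowest of each group. The groups also did not overlap, with Rb-null higher, for 5.73% of all probe sets tested. The means were 181 ± 39.1 in Rb-null cells and 79.1 ± 42.9 in control cells (SD, n = 3 each), a log2 fold change of 1.16 (SE 0.35, 95% interval 0.36 to 1.96), or 2.23-fold. Array by array, the differences between Rb-null and control of the same number were 1.07, 0.69 and 1.72 on the log2 scale.

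This Gabpa probe set did not pass the limma test over all probe sets (adjusted p = 0.796, unadjusted p = 0.00985). With the replicate number as a block, a variance trend and robust moderation it passed (limma adjusted p = 0.0448), as did 3.47% of all probe sets, and with the block alone it did not (adjusted p = 0.120). Leaving out 1 array at a time moved its log2 fold change between 0.81 and 1.39, and without both arrays numbered 3 it was 0.89.

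The other Gabpa probe set, 1450664_at, read 215, 211 and 70.6 in Rb-null replicates 1, 2 and 3, against 166, 169 and 55.7 in control replicates 1, 2 and 3. Both arrays numbered 3 were low, and the groups overlapped. Its log2 fold change was 0.29 (SE 0.43, 95% interval -0.69 to 1.27, limma adjusted p = 1.00), with differences of 0.32, 0.27 and 0.28 by array number, and -0.08 without control replicate 3. The replicate block gave this probe set an SE of 0.15, and it did not pass there either (limma adjusted p = 0.389). The probe sets of Gabpa thus disagree in size, and the sources used here do not give their place in the transcript.

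Nrf1, the nuclear respiratory factor that binds GC-rich sites of genes for the respiratory chain and for mitochondrial factors, was above background on all 4 of its probe sets, whose log2 fold changes ran from -0.02 to 0.76. On the brightest, 1434627_at, it read 229, 207 and 157 in Rb-null replicates 1, 2 and 3, against 225, 192 and 172 in control replicates 1, 2 and 3. The values lay almost on top of each other, with a log2 fold change of -0.02 (SE 0.25, 95% interval -0.59 to 0.56, limma adjusted p = 1.00) whose sign differed between settings. On 1445914_at it read 82.0, 141 and 129 in Rb-null replicates 1, 2 and 3, against 69.0, 91.8 and 35.9 in control replicates 1, 2 and 3. The Rb-null array was above the control array of each number, and the groups overlapped through Rb-null replicate 1.

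Means on that probe set were 117 ± 31.2 in Rb-null cells and 65.6 ± 28.1 in control cells (SD, n = 3 each), a log2 fold change of 0.76 (SE 0.33, limma adjusted p = 1.00, unadjusted p = 0.0489), which was 0.39 without both arrays numbered 3. It was 0.56 without control replicate 3, whose 35.9 was the lowest value. The remaining probe sets of Nrf1 had log2 fold changes of 0.22 (SE 0.29) on 1420978_at and 0.46 (SE 0.32) on 1424787_a_at, neither past the limma test (adjusted p = 1.00 for each). With 1 array left out, 1420978_at ran from 0.07 without control replicate 2 to 0.38 without Rb-null replicate 2. Likewise 1424787_a_at, whose pair differences were 0.56, -0.03 and 0.86, ran from 0.19 without Rb-null replicate 3 to 0.70 without Rb-null replicate 2. Of the 4 probe sets of Nrf1, 3 were above 0 and 1 below.

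Esrra, the orphan receptor through which PGC-1 coactivators reach many oxidative genes, was at background on both probe sets. On 1442864_at it read 21.2, 13.4 and 13.0 in Rb-null replicates 1, 2 and 3, against 15.8, 15.6 and 17.5 in control replicates 1, 2 and 3. The other probe set read 2.97 to 8.48 in Rb-null cells and 11.2 to 26.3 in control cells, and only control replicate 3 stood above the filter value. These values do not overlap, with Rb-null lower, but the probe set averaged below the filter, so no fold change is given. How many dim probe sets of the whole table separate with Rb-null lower was not counted either. Of all members, 1442864_at had the mean nearest below the filter, and 1437377_a_at of Polrmt, with a mean of log2 5.25, the nearest above it.

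**Figure D2:**
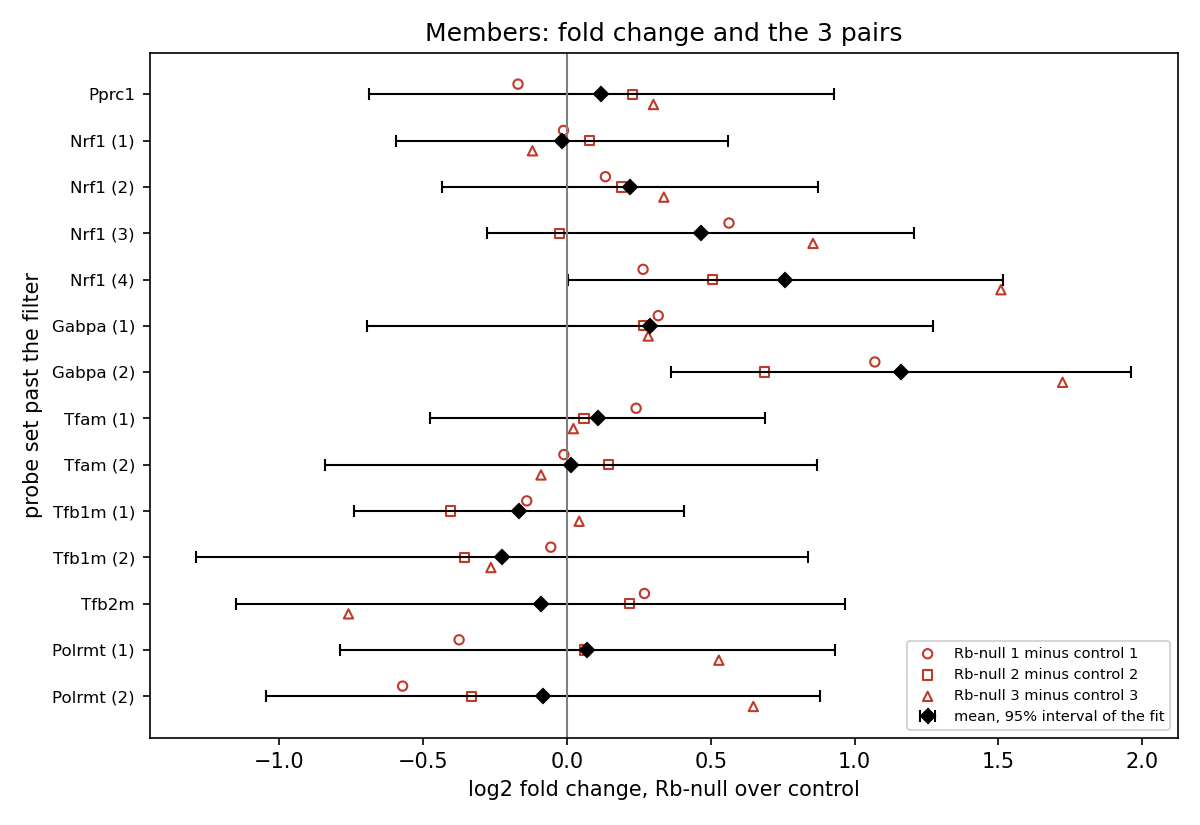
Log2 fold change, Rb-null over control, of the 14 probe sets past the filter (diamonds, with the 95% interval of the limma fit as bars) and the difference between the Rb-null and the control array of each number (open red symbols). The second Gabpa probe set stands at 1.16, and the fourth Nrf1 probe set at 0.76, while the intervals of the others cross 0.

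Tfam, the protein that coats and bends mitochondrial DNA and is needed both to start its transcription and to keep its copy number, differed by less than the spread between arrays. On its brighter probe set, 1448224_at, it read 147, 181 and 115 in Rb-null replicates 1, 2 and 3, against 124, 170 and 114 in control replicates 1, 2 and 3. Both arrays numbered 2 were high, and the groups overlapped across nearly their whole range. The means were 148 ± 33.1 in Rb-null cells and 136 ± 30.2 in control cells (SD, n = 3 each), 1.08-fold with a 95% interval of 0.720 to 1.61 (limma adjusted p = 1.00). The pair differences were 0.24, 0.06 and 0.02 on the log2 scale, all above 0, and the replicate block gave an SE of 0.15 where the fit without it gave 0.25 (limma adjusted p = 0.748 with the block). Leaving out 1 array moved the log2 fold change of 0.11 between 0.02 (without control replicate 1) and 0.20 (without control replicate 2). The dimmer probe set, 1456215_at, gave 0.02 on the log2 scale (SE 0.37), with both arrays numbered 3 high, at 59.5 in Rb-null cells and 64.2 in control cells.

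The named genes whose signal most resembled that of the brighter Tfam probe set over the 6 arrays were Rassf3 (Pearson's r = 0.99) and E130309D02Rik, Med14, Atad3a and Timm50 (r = 0.98 each). With 6 arrays of 2 groups, which share array numbers in pairs, 103 of 13231 other named genes had an r above 0.9. The search took the most alike probe set of each gene, which for Atad3a stood at 0.20 on the log2 scale, whereas its brightest probe set, used in the lists that follow, stood at -0.15. The likeness is a description of these arrays alone.

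Tfb1m and Tfb2m are related proteins of the rRNA methyltransferase family. Tfb1m methylates the RNA of the small mitochondrial ribosomal subunit, and Tfb2m melts the promoter for the polymerase. On its brighter probe set, 1449749_s_at, Tfb1m read 106, 110 and 92.1 in Rb-null replicates 1, 2 and 3, against 121, 151 and 88.7 in control replicates 1, 2 and 3. The Rb-null values were close together and within the control range, with a log2 fold change of -0.17 (SE 0.25, 95% interval -0.74 to 0.41, limma adjusted p = 1.00) that ran from -0.25 to -0.07 with 1 array left out. The dimmer probe set, 1435924_at, was lower in each Rb-null array than in the control array of its number, with -0.22 on the log2 scale (SE 0.47). It read 11.1 and 15.5 on the Rb-null and control arrays numbered 3, below the filter value, and its sign turned without Rb-null replicate 3 (0.16) or control replicate 2 (0.13).

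Tfb2m read 140, 105 and 150 in Rb-null replicates 1, 2 and 3, against 116, 86.6 and 263 in control replicates 1, 2 and 3. Control replicate 3 was the highest of all 6. The log2 fold change was -0.09 (SE 0.46, 95% interval -1.15 to 0.97, limma adjusted p = 1.00) with that array and 0.43 without it. It was 0.25 without both arrays numbered 3, and 0.11 without Rb-null replicate 2.

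Polrmt, the single-subunit RNA polymerase of the organelle, read 138, 98.4 and 181 in Rb-null replicates 1, 2 and 3, against 183, 92.6 and 123 in control replicates 1, 2 and 3, on its brighter probe set, 1452835_a_at. Rb-null was lower in the arrays numbered 1 and higher in those numbered 3, and the log2 fold change was 0.07 (SE 0.38, 95% interval -0.79 to 0.93, limma adjusted p = 1.00). Its sign turned without Rb-null replicate 3 (-0.22) or control replicate 2 (-0.19). The dimmer probe set, 1437377_a_at, was above the filter value on 3 of 6 arrays, at -0.08 on the log2 scale (SE 0.42).

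Around these regulators, lists of their upstream inputs and partners and of the nuclear genes that Nrf1, Gabp or Esrra are described to control were measured, and no gene of either list passed the limma test over all probe sets. Of 40 upstream inputs and partners, 34 passed the filter, 17 above and 17 below 0, with a median log2 fold change of 0.00, against -0.04 over all 13232 genes. Of all genes 54.6% were below 0. Higher in all 3 array pairs were 11 of the 34, a share of 32.4% against 18.4% of all genes. Lower in all 3 were 4, a share of 11.8% against 24.1% of all genes. The median of the list ran from -0.03 without control replicate 3 to 0.23 without control replicate 1, and without control replicate 2 the list had 23 genes above and 11 below 0. Sirt1, a deacetylase of PGC-1 alpha, read 478, 507 and 223 in Rb-null replicates 1, 2 and 3, against 165, 221 and 62.8 in control replicates 1, 2 and 3. All Rb-null values lay above all control values, as for 5.13% of all genes, with a log2 fold change of 1.38 (SE 0.40, limma adjusted p = 0.765). Nfe2l2, the factor of the antioxidant response, stood at 0.95 on the log2 scale (SE 0.33), the zinc finger factor Yy1 0.80 (SE 0.37) and Sp1 0.71 (SE 0.41), each with adjusted p = 1.00.

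These 4 genes passed as higher in the limma fit with the replicate block, variance trend and robust moderation (adjusted p = 0.0195 for Sirt1, 0.0299 for Nfe2l2, 0.0378 for Yy1 and 0.0474 for Sp1), in which 2.19% of all genes were called higher. The other probe sets of Yy1 stood at 0.67, 0.35 and 0.38, and those of Sp1 at 0.82 and 0.72. Gabpb1, the activating partner of Gabpa, was picked out after its values were seen. It read 163, 183 and 87.3 in Rb-null replicates 1, 2 and 3, against 98.4, 160 and 22.2 in control replicates 1, 2 and 3. The Rb-null array was higher at each number, the groups overlapped, and the log2 fold change of 0.77 (SE 0.48) did not pass in either fit (limma adjusted p = 1.00, and 0.183 with block, trend and robust moderation). Gabpb2, the other partner, was brighter and stood at -0.08 on the log2 scale (SE 0.51), with pair differences of -0.36, -0.09 and 0.21. Ppard, Pparg, Prkaa2, Prkag2 and Crtc2 were below the filter.

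The list of 22 described targets held 20 genes past the filter, of which 17 had a log2 fold change below 0, a share of 85% against 54.6% of all genes, and 14 were lower in all 3 array pairs, a share of 70% against 24.1% of all genes. Its median was -0.23, and between -0.33 and -0.16 over the 17 alternatives, with the nearest to 0 without control replicate 2. This list, like the others, was drawn up with earlier results of these data known. Its genes were all read on the same 3 array pairs, so the counts describe the list and are not a test. Cox6c, a subunit of cytochrome oxidase, averaged 1643 ± 792 in Rb-null cells and 2485 ± 443 in control cells (SD, n = 3 each), a log2 fold change of -0.74 (SE 0.33). Sdhb, the iron-sulfur subunit of succinate dehydrogenase, had -0.57 (SE 0.27), the cytochrome oxidase assembly factor Surf1 -0.44 (SE 0.28), and the oxidase subunit Cox6b1 -0.46 (SE 0.32). Each of these 4 had limma adjusted p = 1.00. With block, trend and robust moderation 1 gene of the list passed, and was lower, the copper chaperone Cox17 (log2 fold change -0.65, limma adjusted p = 0.0440), against 1.34% of all genes called lower. The 3 listed genes above 0 were Cycs at 0.33, Sdhd at 0.14 and Atp5b at 0.11.

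Genes of mitochondrial DNA replication and of RNA handling in the organelle centred on a median of -0.17 on the log2 scale for the 33 of 40 genes past the filter. Of these 24 were below 0, a share of 72.7% against 54.6% of all genes. Lower in all 3 pairs were 14, a share of 42.4% against 24.1% of all genes. Higher in all 3 were 0, where 18.4% of all genes were. The count below 0 was 18 of 33 without Rb-null replicate 3, with a median of -0.07. Lowest p-values belonged to Dguok, the mitochondrial deoxyguanosine kinase, at -0.46 (SE 0.25), the RNA-binding protein Slirp at -0.73 (SE 0.49), the primase Primpol at -0.47 (SE 0.32) and the single-strand binding protein Ssbp1 at -0.57 (SE 0.53), none past the limma test (adjusted p = 1.00 for each). Another Ssbp1 probe set had -0.09 (SE 0.26). The polymerase of mitochondrial DNA replication, Polg, stood at 0.11 and the helicase Twnk at -0.25, both singled out after their values were seen.

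Of 15 transcripts made from mitochondrial DNA 1 was measured by name, ND5, a complex I subunit and a direct product of the machinery above. It read 838, 2044 and 794 in Rb-null replicates 1, 2 and 3, against 1589, 2627 and 1513 in control replicates 1, 2 and 3. Both arrays numbered 2 were high, and the Rb-null array was lower at each number. The log2 fold change was -0.82 (SE 0.37, limma adjusted p = 1.00), from -1.17 without Rb-null replicate 2 to -0.61 without Rb-null replicate 1. With block, trend and robust moderation ND5 passed as lower (limma adjusted p = 0.0323), as did 1.34% of all genes. The summed granulocyte signal, given above, was also highest on both arrays numbered 2 and lower on the Rb-null array of each number. On the arrays numbered 2 it was 56401 (Rb-null) and 57210 (control), where the ND5 difference was -0.49 on the log2 scale. In both groups it was higher on the array numbered 3 than on that numbered 1. ND5 read 794 and 838 on those Rb-null arrays, and 1513 and 1589 on those control arrays. No fit separated the 2 signals, and the part of granulocyte signal in the ND5 value was not tested.

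**Figure D3:**
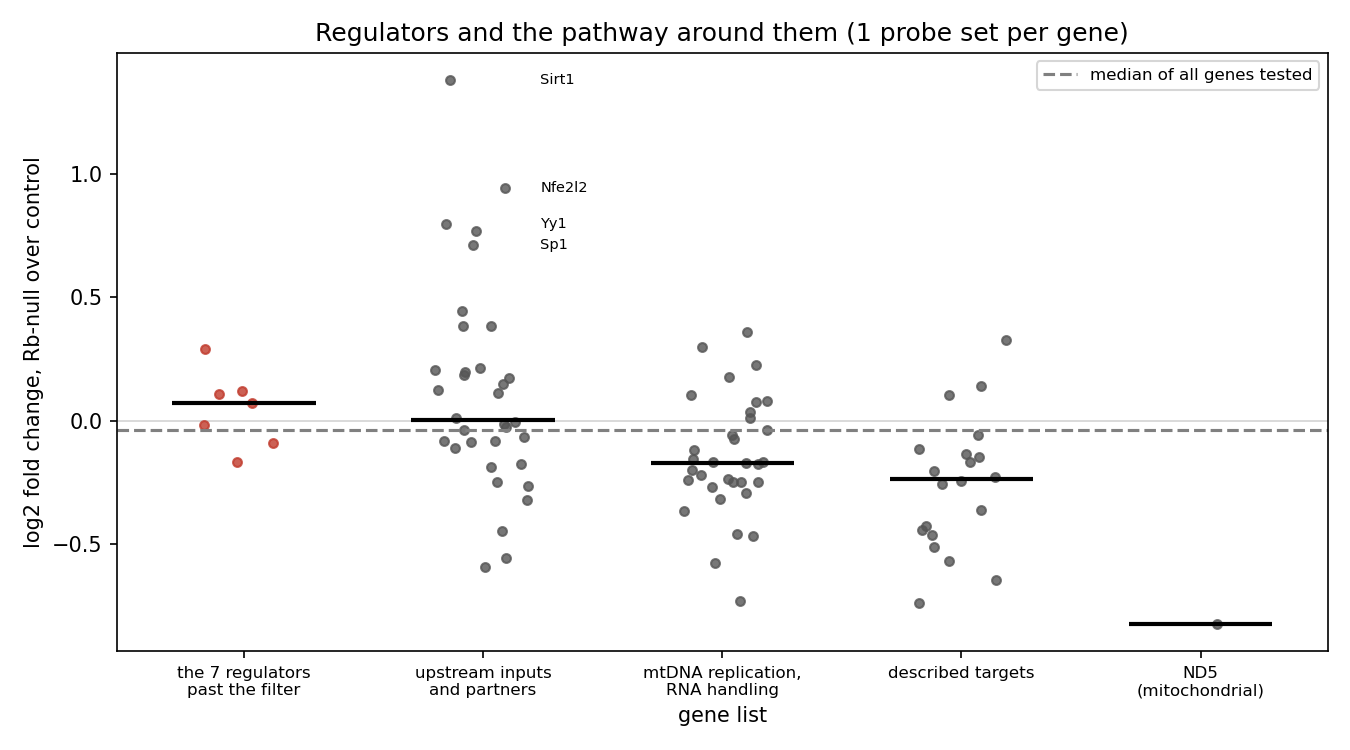
Log2 fold change, Rb-null over control, of each gene past the filter (points, the probe set with the highest mean) in 5 lists, with the list's median as a black bar and the median of all genes, -0.04, as a dashed line. The 7 regulators lie between -0.17 and 0.29, Sirt1 stands highest at 1.38, and most described targets and ND5 lie below 0.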

How the data were processed

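RNA, isolated with Trizol and a QIAGEN kit, was biotin-labelled, per the labels' protocols. Each deposited value is a probe set's intensity, unlogged, and the sources used here do not give the method behind it, any scaling between arrays or a genome build. Group and array number came from the sample titles. Of 45101 rows, 64 control probe sets, 4 empty rows and 1 row above the 16-bit limit of 65535 were left out. Values were transformed as log2(value + 16) and quantile normalized, and those averaging above the 40th percentile were fitted in limma 3.58.1 (R 4.3.3), 2-sided, with Benjamini-Hochberg adjustment over all 27019 and a threshold of 0.05. The fit was run on simulated data, where a limit was set on the bias of the fold changes alone, so the calls were not checked there. Probe sets at or below the filter are called at background. No gene symbol changed on updating. Lists are described by counts and medians, 1 probe set per gene, with no set test.

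An exact permutation test of 3 against 3 cannot go below 0.1, so limma alone was used. Same-numbered arrays deviated together from their group means (correlations 0.64, 0.62 and 0.67 across probe sets, and at most 0.07 between other numbers), so pair differences are given, and the number was used as a block in alternatives. The labels do not say what a shared number means. The members and lists were chosen with earlier results of these data known. All 10 members are named, with every probe set, and up to 4 genes of each list with the smallest p. Alternatives covered the offset, scaling, filter, unit of the fit, block, moderation, array weights and left-out arrays.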

Additional observations from a re-analysis of the deposited data

How the results depend on the processing

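Over the 17 alternatives, 0 probe sets, members or listed genes were called except with the replicate block, variance trend and robust moderation, where limma called 938 of all probe sets (605 higher and 333 lower), 1 member probe set (Gabpa 1450665_at, log2 fold change 1.16) and 6 listed genes. With the replicate block alone 0 were called (lowest adjusted p = 0.0999), so the block changed no call by itself. The cause of the larger count was not tested. The log2 fold change of Gabpa 1450665_at kept its sign in every alternative run (0.81 to 1.39), as did those of 1420978_at, 1424787_a_at and 1445914_at of Nrf1, 1448224_at of Tfam and 1449749_s_at of Tfb1m. The signs of the other 8 turned under at least 1 alternative. Nrf1 1434627_at (-0.02) was 0.0020 with the deposited scaling, 0.0025 with median centring, 0.030 with array weights, 0.035 without both arrays numbered 3, and -0.10 to 0.054 with 1 array left out. Tfb2m (-0.09) was 0.16 with array weights, 0.25 without both arrays numbered 3, and -0.44 to 0.43 with 1 array left out. Polrmt 1452835_a_at (0.07) was -0.074 with array weights, -0.16 without both arrays numbered 3, and -0.22 to 0.34 with 1 array left out, and Polrmt 1437377_a_at (-0.08) was 0.0011 with an offset of 4 and -0.56 to 0.082 with 1 array left out. With 1 array left out Pprc1 ran from -0.15 to 0.39, Gabpa 1450664_at from -0.076 to 0.66, Tfam 1456215_at from -0.23 to 0.31 and Tfb1m 1435924_at from -0.59 to 0.16. The all-probe-set count stayed 0 with each array left out. With 3 arrays a group, signal over background limits the dim probe sets, and no fold change is given for 8 of the 22.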
